A study of Mus musculus with 13 samples.

Results

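The regions described here carried a BLIMP1 ChIP summit in both germ cell precursors made in culture and plasmablasts, and none in embryonic intestinal epithelium or photoreceptor precursors. The summits of 12 ChIP libraries on chromosomes 1 to 19, joined where neighbours lay no more than 200 bp from each other, gave 152528 regions. A region was kept when all 4 libraries of primordial germ cell-like cells (PGCLC) and both plasmablast libraries had a summit in it and none of the 4 intestinal and photoreceptor libraries did. This left 519 regions, of which 313 (60.3%) also had a summit in both libraries of E12.5 primordial germ cells (PGC). That share was 4.97% over all regions with a summit in at least 1 of the other 10 libraries. It was 47.1% in PGCLC regions without plasmablasts, intestine or retina, and 92.2% in regions shared by PGCLC and all 3 somatic cell types. At least 1 E12.5 PGC library had a summit in 83.0% of the 519 regions. This was near the 83.6% of all 7498 regions with a summit in all 4 PGCLC libraries. The choice did not require E12.5 PGC, although their summits were merged with the rest. The regions were thus chosen by the summits of the other 10 libraries, whose presence and absence in them is a description. "Absent" means that no summit was listed, in the only other somatic cell types measured.

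The study mapped BLIMP1 by ChIP-seq in mouse cells. All groups were C57BL/6, carried an EGFP tag at the N terminus of BLIMP1 on both alleles, and were precipitated with the anti-GFP antibody ab290, so every library reads the tagged protein and no cells without the tag are included. PGCLC came from knock-in embryonic stem cell lines that had first been held for 36 h as epiblast-like cells. d2 PGCLC had 2 days of LIF and BMP4 at 500 ng/mL and were sorted as KIT+ (2 libraries). d6 PGCLC had 6 days of LIF, BMP4 and BMP8a at 500 ng/mL, SCF at 100 ng/mL and EGF at 50 ng/mL, and were sorted as SSEA1+ and integrin beta-3+ (2 libraries). Plasmablasts were purified B cells stimulated for 3 days with IL-4 at 2 ng/mL and LPS at 10 ng/mL and sorted as GFP+ and CD138+ (2 libraries). E12.5 PGC were SSEA1+ cells of male and female gonads, 1 library each. Intestinal epithelium was GFP+ and EPCAM+ cells at E16.5 (2 libraries), and photoreceptor precursors were GFP+ retinal cells at postnatal day 4 (2 libraries). The labels do not say whether the replicates came from separate cultures or animals. The lists hold positions and no expression, so the cell type labels could not be checked against marker genes.

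BLIMP1, the product of Prdm1, is a zinc-finger transcriptional repressor. In B cells it shuts off the B cell programme and drives differentiation into antibody-secreting cells, and in the mouse embryo it is needed to specify primordial germ cells and to repress somatic genes in them. It recognizes DNA around a GAAAGT core and shares sites with interferon regulatory factors.

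The libraries differed in length. On chromosomes 1 to 19 they listed 15248 to 75237 summits in PGCLC, 39944 and 44141 in plasmablasts, 12115 in male and 17369 in female E12.5 PGC, 7866 and 11946 in intestinal epithelium and 10674 and 13740 in photoreceptor precursors. The lists used as absent were therefore the shortest of the somatic ones, and the part that list length plays in the absence was not tested. The 519 regions made up 6.92% of the 7498 regions with a summit in all 4 PGCLC libraries and 2.28% of the 22753 with a summit in both plasmablast libraries. By the same rule with the cell types exchanged, 182 regions had all 4 PGCLC libraries and both intestinal libraries, which was 3.74% of the 4870 regions of both intestinal libraries, and 145 had all 4 PGCLC and both photoreceptor libraries, 1.88% of 7732.

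Listed promoter windows, the 300 bases from 250 before to 50 after a transcription start, were used on chromosomes 1 to 17 and 19. Of the 502 regions there, 20 had their centre inside such a window (3.98%, beside 4.84% of all regions). Centre means the median summit of the 6 required libraries. 4 of these windows are shown as examples of the DNA under the summits, and they do not stand for the rest. 3 are among the 5 of 21 windows that hold the GAAAGT core. The others of those 5, at LOC115486880 and Gm30509, had it 4.50 and 1.50 bp from the centre and are not shown. Their 6 required summits spanned 148 and 283 bp. The fourth example belongs to Dll1, a gene of the Notch list, and holds TGANTCA (N is any base), here as TGATTCA, but no GAAAGT. Sequences are from RefSeq on GRCm38.p6 (the coordinates of mm10), written 5′ to 3′ along the gene, and capitals mark GAAAGT and TGANTCA on either strand, so that the reverse complement ACTTTC is also in capitals. The windows are chr11:72301379-72301678 (plus strand) for Xaf1, chr9:98986123-98986422 (plus) for Faim, chr7:58657952-58658251 (plus) for Atp10a and chr17:15376883-15377182 (minus) for Dll1.
Xaf1 promoter: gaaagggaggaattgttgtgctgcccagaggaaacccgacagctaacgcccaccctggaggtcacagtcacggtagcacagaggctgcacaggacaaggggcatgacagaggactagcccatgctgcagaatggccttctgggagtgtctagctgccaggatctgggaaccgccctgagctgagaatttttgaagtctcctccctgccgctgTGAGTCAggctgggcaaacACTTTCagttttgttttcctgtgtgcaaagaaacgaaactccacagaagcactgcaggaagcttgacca
Faim promoter: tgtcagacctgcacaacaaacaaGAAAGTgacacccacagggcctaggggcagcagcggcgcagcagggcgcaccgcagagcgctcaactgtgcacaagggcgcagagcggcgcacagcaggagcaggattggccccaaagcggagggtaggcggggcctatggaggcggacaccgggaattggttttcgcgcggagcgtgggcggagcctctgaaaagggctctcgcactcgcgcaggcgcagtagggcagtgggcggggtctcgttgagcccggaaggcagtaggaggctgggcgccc
Atp10a promoter: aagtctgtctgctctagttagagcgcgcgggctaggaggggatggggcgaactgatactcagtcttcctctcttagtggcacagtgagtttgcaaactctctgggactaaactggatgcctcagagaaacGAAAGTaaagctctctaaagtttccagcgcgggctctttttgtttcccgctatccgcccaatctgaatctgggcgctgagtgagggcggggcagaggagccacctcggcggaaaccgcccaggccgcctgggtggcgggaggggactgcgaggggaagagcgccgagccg
Dll1 promoter: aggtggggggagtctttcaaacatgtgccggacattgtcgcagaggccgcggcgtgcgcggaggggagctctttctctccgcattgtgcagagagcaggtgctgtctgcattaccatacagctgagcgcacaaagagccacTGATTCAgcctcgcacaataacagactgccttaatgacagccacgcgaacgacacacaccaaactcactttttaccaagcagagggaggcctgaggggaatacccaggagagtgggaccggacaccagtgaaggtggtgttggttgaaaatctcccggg

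Xaf1 encodes an interferon-induced antagonist of the apoptosis inhibitor XIAP. The centre of its region fell on base 237 of the window, and the GAAAGT core on the other strand covered bases 232 to 237, so that their midpoints were 2.5 bp apart. The TGANTCA match in the same window covered bases 213 to 219. At Faim, which encodes an inhibitor of Fas-induced cell death, the core lay at bases 24 to 29, 25.5 bp from the centre. At Atp10a, which encodes a phospholipid-flipping ATPase, it lay at bases 131 to 136, 50.5 bp from the centre. At Dll1, which encodes a Notch ligand, TGANTCA lay at bases 142 to 148, 2.0 bp from the centre.

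Of the 21 promoter windows that held a centre (1 region lay in the windows of both Ifrd1 and Gm7008), 5 held GAAAGT on either strand. That is 23.8%, against 14.4% of all 31396 windows of chromosomes 1 to 17 and 19. With so few windows, 3 of 21 held the longer GAAAGTG (14.3%, against 4.87% of all windows), a match that includes the shorter core. Of the other motifs, TGANTCA was in 4 (19%, against 7.84%), CACGTG in 3 (14.3%, against 7.14%), GGGCGG in 13 (61.9%, against 36.0%) and the interferon-stimulated response element in 1 (4.76%, against 3.46%). The octamer ATGCAAAT, held by 1.75% of all windows, was in none. For the ETS-IRF composite element only a single fixed spelling was searched. That spelling, held by 0.223% of all windows, was also in none. Other spellings of the element were not counted, so its absence from these windows was not tested. The share with GAAAGT was 68.2% of 214 windows at regions shared by PGCLC, plasmablasts, intestine and retina, 42.1% of 38 windows at regions of PGCLC without any summit in the other 3 cell types, and 13.5% of 1219 windows at regions of plasmablasts without any in the other 3. These are descriptions of letters in a window, and the DNA of the 482 other regions off chromosome 18 was not used here.

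The rule itself placed the 6 required summits in 1 cluster, so their distances are a description. The distance from the lowest to the highest of them had a median of 171 bp over the 519 regions (quartiles 107 and 249, range 8 to 691). The summits of 2 libraries of the same cell type were a median of 59 bp apart in d2 PGCLC, 51 bp in d6 PGCLC and 56 bp in plasmablasts. A PGCLC and a plasmablast summit were a median of 52 to 65 bp apart over the 8 pairs of libraries. At the 1166 regions shared by PGCLC, plasmablasts, intestine and retina, the replicates lay closer, at a median of 35 bp in d2 PGCLC, 34 bp in d6 PGCLC and 26 bp in plasmablasts. The male and female E12.5 PGC summits were not required by the choice, but were merged with the rest. Where a region held one, it lay a median of 41 to 56 bp from the summit of each required library. The merging limits this distance too, so it is also a description.

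Of the 519 regions, 431 had a summit in at least 1 of the E12.5 PGC libraries, which is 83.0% (95% Clopper-Pearson interval 79.5 to 86.2%). Both libraries had one in 313 regions (60.3%, 56.0 to 64.5%), only the female library in 101, only the male library in 17, and neither in 88. In all, 330 had a male summit (63.6%, beside 6.41% of all regions) and 414 a female one (79.8%, beside 9.65%). The male and female shares were 50.1% and 72.1% in the PGCLC regions without plasmablasts, intestine or retina. In the regions shared by all 4 cell types they were 93.1% and 96.7%. Over all 147170 regions with a summit in at least 1 of the 10 libraries of the rule, 11.1% had an E12.5 PGC summit in either library and 4.97% in both. Of all 7498 regions with a summit in the 4 PGCLC libraries, whatever the other cell types, 83.6% had an E12.5 PGC summit, a share near that of the 519. The share was 75.1% (73.6 to 76.5%) in the 3389 PGCLC regions with no summit in plasmablasts, intestine or retina, 97.5% (96.4 to 98.3%) in the 1166 regions shared by all 4 cell types, and 1.66% (1.44 to 1.91%) in the 11976 plasmablast regions with none in PGCLC, intestine or retina. The interval of the 519 regions overlapped none of these 3. All intervals cover counting error only, and regions are not replicates of a condition.

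**Figure D1:**
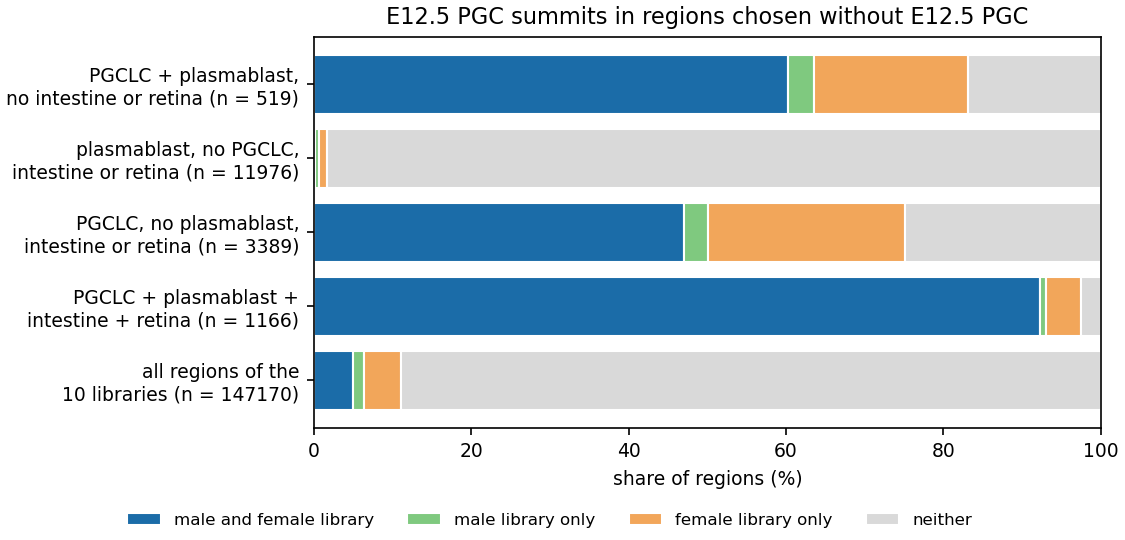
Share of regions (horizontal axis, percent) with a summit in both, only the male, only the female or neither E12.5 PGC library, for the 519 regions, 3 other sets and all 147170 regions of the 10 libraries; colours mark the classes. The top bar has a summit in both libraries in 60.3% and in neither in 17%, whereas the plasmablast regions without PGCLC have neither in 98.3%.

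By position, the E12.5 PGC share was 69.4% (57.5 to 79.8%) of the 72 regions within 1 kb of a gene end, 83.0% (77.6 to 87.5%) of the 241 inside a gene and 87.9% (82.6 to 92.0%) of the 206 between genes. In the PGCLC regions without plasmablasts, intestine or retina the same shares were 71.1%, 74.5% and 76.0%, and in the regions shared by all 4 cell types they were 95.9%, 98.0% and 98.9%. Over all regions they were 10.3% at gene ends, 10.3% inside genes and 6700 of 53805 between genes. In the plasmablast regions without PGCLC, where few regions had an E12.5 PGC summit, they were 2.56%, 1.32% and 1.47%.

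Most of the regions lay away from the ends of protein-coding genes. Within 1 kb of an end, either the start or the other end, were 72 regions (13.9%, 11 to 17.1%), beside 16.8% of all regions. The share was higher in the regions shared by all 4 cell types (35.2%, 32.4 to 38.0%) and in the plasmablast regions without PGCLC (24.1%, 23.4 to 24.9%), and lower in the PGCLC regions without plasmablasts (4.69%, 4.00 to 5.46%). The 519 thus stood between the sets of the cell types they combine, near the level of all regions. A further 116 regions lay 1 to 5 kb from an end, 249 lay 5 to 50 kb away, and 82 lay farther than 50 kb. The median distance was 10740 bp (95% interval 8912 to 13634), against 25194 bp in the PGCLC regions, 7539 bp in the plasmablast regions, 4637.5 bp in the shared regions and 12008.5 bp over all regions.

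**Figure D2:**
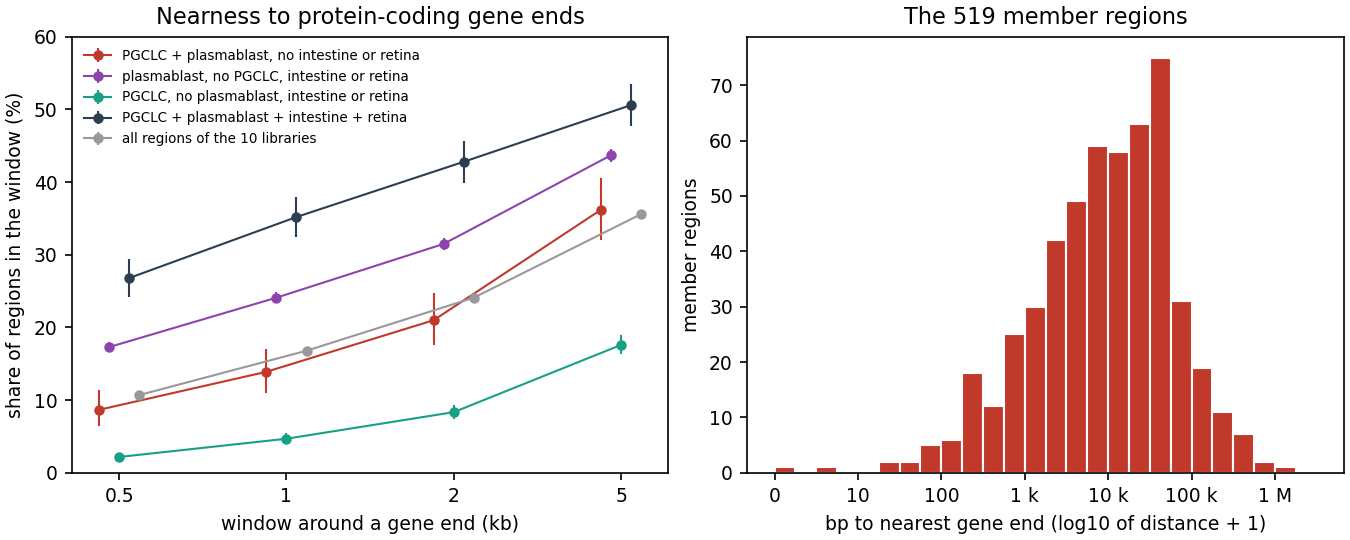
Left, share of regions (percent, vertical axis) that lay 0.5, 1, 2 or 5 kb or less from a protein-coding gene end, with 95% Clopper-Pearson intervals, for the 519 regions (red) and the sets named in the key. Right, number of the 519 regions by distance to the nearest gene end on a log10 axis; the red points lie near the grey points of all regions at each window and between the purple and green sets, and the distances centre on a median of 10740 bp.

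Of the 72 regions at a gene end, 62 had a listed transcription start of that gene, and 40 of those lay within 1 kb of it, 25 upstream and 15 downstream. The other 22 lay over 1 kb from each listed start of it. The regions were spread over all 19 chromosomes, with 17 to 44 on each.

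The rule removed every region with an intestinal or photoreceptor summit in it, and merging at 200 bp left none closer than that. The nearest intestinal or photoreceptor summit lay a median of 17825 bp away, 10 regions (1.93%) had one within 300 bp and 46 (8.86%) within 1 kb, and the closest was at 209 bp. The same shares were 1.13% within 300 bp and 7.71% within 1 kb in the plasmablast regions without PGCLC, intestine or retina, and 0.561% and 3.81% in the PGCLC regions without plasmablasts, intestine or retina. Just outside the rule were 54 regions with all 6 required libraries and a summit in intestinal replicate 1 alone of the 4 excluded libraries, 114 with intestinal replicate 2 alone, 19 with photoreceptor replicate 1 alone and 52 with photoreceptor replicate 2 alone. A further 146 regions missed d2 PGCLC replicate 1 alone of the required libraries, 53 missed d2 replicate 2, 32 missed d6 replicate 1, 187 missed d6 replicate 2, 113 missed plasmablast replicate 1 and 173 missed plasmablast replicate 2.

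The 519 regions named 493 nearest protein-coding genes. Within 50 kb, 420 genes were nearest to a region, 2.03% of the 20665 protein-coding genes on these chromosomes, and 83 genes (0.402%) had a region within 1 kb of an end. Of 436 genes in 20 lists of pathways and cell types, 22 were nearest within 50 kb (5.05%, beside 2.03% of all genes), and 5 had a region within 1 kb (1.15%, beside 0.402%). Listed genes also had the higher share in the other sets, at 47.2% beside 27.7% of all genes for the plasmablast regions, 14.0% beside 9.24% for the PGCLC regions and 9.86% beside 4.41% for the shared regions. Nearest does not mean regulated, and no expression was measured.

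The B cell and plasma cell genes near these regions encode surface receptors and a regulator. Of 29 B cell identity genes 3 were nearest within 50 kb, Cd86, Cxcr5 and S1pr1, and of 26 plasma cell and secretion genes only Irf4. Cd86, a costimulatory ligand for T cells, was nearest to 3 regions, a number shared only with Pcgf5 and Rbm47. One lay inside the gene and the other two beyond its end, 8882 and 9295 bp away. In the tightest of them the summits lay at 20 and -16 bp from the centre in d2 PGCLC, 8 and 0 bp in d6 PGCLC, 19 and -5 bp in plasmablasts, and 42 and 28 bp in male and female E12.5 PGC, where positive means towards higher coordinates. All 8 libraries thus fell within a window far shorter than the typical region. Over Cd86 and 5 kb on each side, the lists held 2 and 3 summits in d2 PGCLC, 14 and 3 in d6 PGCLC, 12 and 13 in plasmablasts, 3 and 2 in E12.5 PGC, 1 and 0 in intestine and 0 and 0 in retina.

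Irf4 encodes the interferon regulatory factor needed for plasma cell formation. Its region lay 10740 bp upstream of the start, at 115 and 11 bp from the centre in d2 PGCLC, 0 and -113 bp in d6 PGCLC, 18 and -92 bp in plasmablasts and 152 bp in male E12.5 PGC. Inside the gene and 5 kb on each side, plasmablasts had 21 and 14 summits and the other 10 libraries had 0 each, so PGCLC had summits in the upstream region and none over the gene. Cxcr5, the chemokine receptor that guides B cells into follicles, had a comparable layout. Its region lay 11502 bp from an end, with a summit in female E12.5 PGC, while over the gene and 5 kb plasmablasts had 12 and 16 summits, d6 PGCLC replicate 1 had 1, and the other 9 libraries had none. S1pr1, the receptor for lymphocyte egress, had a tight region 14342 bp from an end (spread of the 6 summits 62 bp) with both E12.5 PGC libraries. The nearest intestinal or photoreceptor summit was 57052 bp from the edge of the region at Irf4, 27385 bp at Cxcr5 and 98788 bp at S1pr1.

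Antigen presentation genes came next. Of 15 MHC class II genes 2 were nearest within 50 kb. The region at Ciita, the master transactivator of class II genes, lay inside the gene, 9706 bp from its lower end, with d2 PGCLC summits at 107 and -79 bp, d6 PGCLC at 12 and 74 bp, plasmablasts at 0 and -40 bp and female E12.5 PGC at 14 bp. Over Ciita and 5 kb, plasmablasts had 13 and 13 summits, d2 PGCLC 1 and 2, d6 PGCLC 7 and 3, E12.5 PGC 0 and 1, and intestine and retina 0 in all 4 libraries. The region in H2-Aa, a class II chain gene, lay 1237 bp inside the start, and that in H2-M3, a class I gene and 1 of 20 on that list, 594 bp inside the start. Neither of the H2 regions had an E12.5 PGC summit, and both had a summit of intestinal replicate 2 close by, at 417 and 215 bp. These were among the 46 regions with such a summit within 1 kb.

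Of 21 STAT and SOCS genes 3 were nearest within 50 kb. Socs1, which encodes an inhibitor of JAK kinases, had a region 3470 bp downstream of its start, past the far end, with summits at 12 and -30 bp in d2 PGCLC, 24 and -31 bp in d6 PGCLC, 0 and 5 bp in plasmablasts and -12 and -11 bp in E12.5 PGC. These 6 required summits spanned 55 bp. Socs2, another member of that inhibitor family, had a wider one (265 bp) inside the gene, with female E12.5 PGC at -40 bp and a photoreceptor summit 1055 bp away. The region in Stat4, which transduces IL-12 signals, lay 931 bp downstream of a listed start and had both E12.5 PGC libraries, with plasmablasts at -50 and -43 bp against 0 to 118 bp in PGCLC. Here the plasmablast and PGCLC summits did not interleave. Of 49 interferon response genes 2 were nearest, Xaf1 (above) and Irgm2, an immunity-related GTPase. The 6 required summits at Irgm2 had the widest spread of the listed genes (442 bp). At Xaf1 the summits lay at -30 and 85 bp in d2 PGCLC, 0 and 11 bp in d6 PGCLC, -50 and 169 bp in plasmablasts and -54 and 50 bp in E12.5 PGC, and the nearest intestinal or photoreceptor summit was 106139 bp away.

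**Figure D3:**
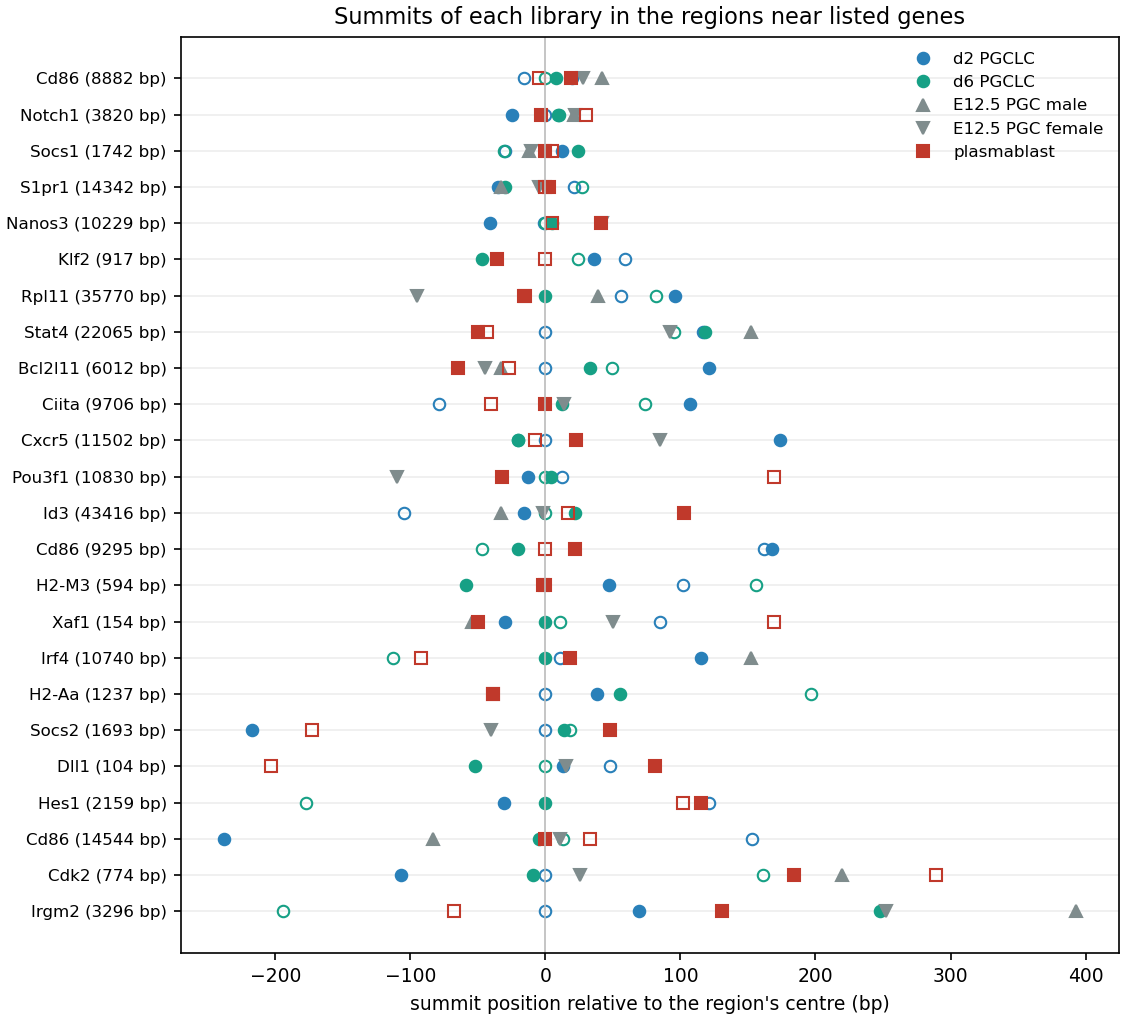
Position of each library's summit relative to the centre of the region (horizontal axis, bp) for the regions nearest to the 22 listed genes, ordered from the narrowest to the widest spread, with the distance to the gene end in brackets. Filled symbols are replicate 1 and open symbols replicate 2 (E12.5 PGC have 1 library of each sex); at the narrowest Cd86 region, Notch1 and Socs1 all symbols lie near 0, whereas at Irgm2 they span 442 bp or more.

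Of the germ cell and early embryo lists, 1 gene each was nearest. Nanos3, which encodes an RNA-binding protein that germ cells need to survive, was 1 of 20 germ cell genes, with a region 10229 bp upstream of the start. Its summits lay at -41 and -1 bp in d2 PGCLC, 5 and 0 bp in d6 PGCLC, 41 and 5 bp in plasmablasts and 42 bp in female E12.5 PGC. Within the gene and 5 kb, PGCLC had 1, 2, 5 and 0 summits and plasmablasts 0 and 0. Klf2, a naive pluripotency factor that also restrains lymphocyte proliferation and trafficking (1 of 17 on the naive list), had a region 917 bp past its far end, without E12.5 PGC. Pou3f1, a POU factor of the primed epiblast (1 of 12), had one 10830 bp away with female E12.5 PGC.

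Of 20 Notch genes 3 were nearest within 50 kb. Dll1, the ligand, had its region 104 bp upstream of the start, and a photoreceptor summit 994 bp away. Its summits lay at 13 and 48 bp in d2 PGCLC, -52 and 0 bp in d6 PGCLC, 81 and -203 bp in plasmablasts and 15 bp in female E12.5 PGC. At Notch1, the receptor, the region lay 3820 bp past an end, with summits at -25 and 0 bp in d2 PGCLC, 10 and 9 bp in d6 PGCLC, -3 and 30 bp in plasmablasts and 21 and 22 bp in E12.5 PGC. At Hes1, the target repressor, it lay 2159 bp away with no E12.5 PGC summit, and intestinal replicate 2 had a summit at 976 bp. The gene and 5 kb around it held 3 and 5 intestinal summits, so that Hes1 was bound in intestine outside the region. Id3, 1 of 7 Id and E protein genes, encodes an inhibitor of E proteins, and its region lay 43416 bp upstream with both E12.5 PGC libraries.

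Among regulators of death and growth, Bcl2l11, which encodes the pro-apoptotic BIM, was 1 of 16 BCL2 family genes, with a region 6012 bp upstream of a listed start and both E12.5 PGC libraries. That region lay inside another gene, Acoxl. Bcl2l11 with 5 kb on each side also held 2, 2, 1 and 3 summits in the intestinal and photoreceptor libraries, against 10 and 14 in plasmablasts. Cdk2, a kinase of the G1 to S transition, was 1 of 30 cell cycle genes, with a broad region 774 bp inside the start (396 bp). Rpl11 was 1 of 38 ribosomal protein genes, at 35770 bp. None of the 25 NF-kB and TNF, 25 DNA and H3K9 methylation, 27 posterior mesoderm and WNT, 30 TGF-beta and BMP or 10 Myc family genes was nearest within 50 kb, although Myc and Max were nearest at 446205 and 58467 bp.

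**Figure D4:**
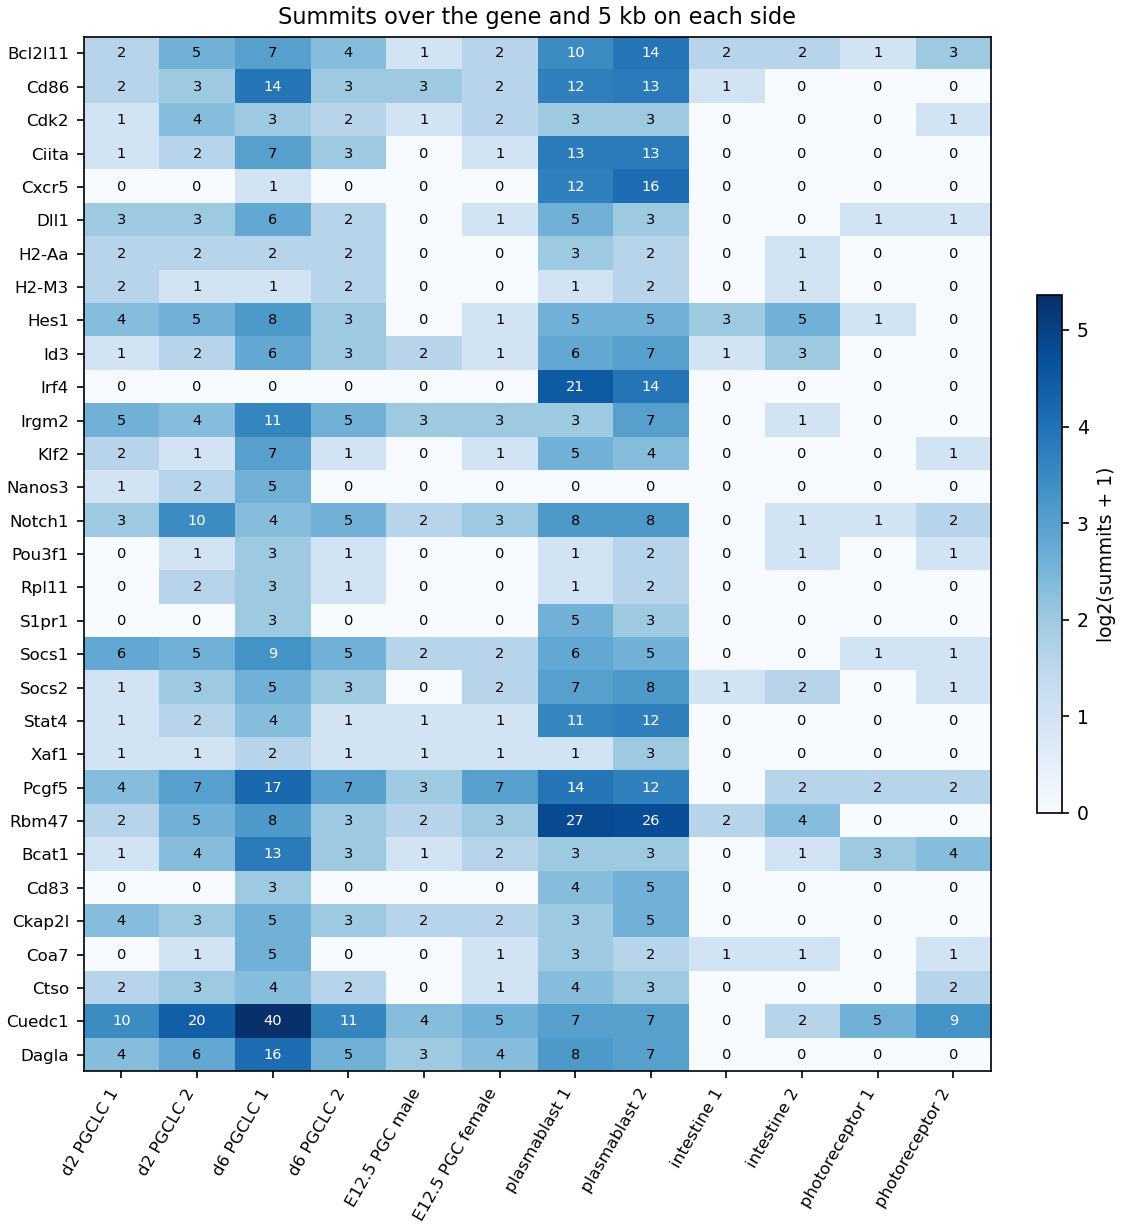
Number of summits over each gene and 5 kb on each side (printed in each cell, colour on a log2 scale) in the 12 libraries, for the 22 listed genes and further genes nearest to several regions. Irf4 and Cxcr5 have counts almost wholly in plasmablasts. Socs1 and Notch1 have most of theirs in PGCLC and plasmablasts, with a few in photoreceptors and, for Notch1, 1 in intestine. Hes1 and Bcl2l11 are among the genes that also have counts in intestine.

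The regions at gene ends with the tightest summits were at genes of varied function. At Ggta1, which encodes the enzyme that makes the alpha-gal epitope, the 6 summits spanned 31 bp, at 12 and -17 bp in d2 PGCLC, 6 and 0 bp in d6 PGCLC and -2 and 14 bp in plasmablasts, with E12.5 PGC at 53 and 41 bp. At Tcn2, which encodes the vitamin B12 carrier transcobalamin, they spanned 35 bp, 83 bp outside an end, with E12.5 PGC at -9 and 10 bp. At H2ac13, a histone gene, the centre fell on the gene end itself and the summits spanned 64 bp. Swap70, a signalling protein of B cells, had a region 490 bp inside an end (spread 100 bp) and both E12.5 PGC libraries, and over the gene and 5 kb 20 and 29 summits in plasmablasts against 1, 1, 3 and 3 in PGCLC. Rabgap1l, Hspb3, Chd4, Atp13a2, Zfp825, Nacc1, Znrf1 and Gbp9 made up the rest of the 12 tightest. Gbp9, an interferon-inducible guanylate-binding protein gene that is not on the lists, had a region 3 bp from an end without E12.5 PGC, and its nearest intestinal or photoreceptor summit was 123422 bp away. At Zfp825 and Nacc1 a photoreceptor and an intestinal summit lay 259 and 324 bp from the edge of the region.

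Of the 23 genes nearest to more than 1 region, Pcgf5, a Polycomb complex component, had 3 regions, all with both E12.5 PGC libraries. Rbm47, an RNA-binding protein gene, had 3, of which 1 had an E12.5 PGC summit, and carried 27 and 26 summits in plasmablasts against 2, 5, 8 and 3 in PGCLC over the gene and 5 kb. Cd83, a surface protein of activated B cells and dendritic cells, had regions 44714 and 34877 bp away on opposite sides, both with both E12.5 PGC libraries, and no summit in intestine or retina over the gene and 5 kb. Ckap2l, a mitotic spindle protein gene, had 2 regions 3568 and 2954 bp from an end, with spreads of 56 and 32 bp, both with both E12.5 PGC libraries. Bcat1, Coa7, Ctso, Cuedc1 and Dagla had 2 regions each. At Cuedc1 the PGCLC lists were dense (10, 20, 40 and 11 summits), against 7 and 7 in plasmablasts. In all, 12 regions had another within 10 kb and 73 within 100 kb.

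The 5 regions farthest from a gene end lay 477635 to 1192001 bp away and all had both E12.5 PGC libraries. The farthest was beyond Brinp3, and the one beyond Zeb2, which encodes a repressor active in lymphoid and neural crest cells, lay at 938414 bp. At 2 of the 5 an intestinal summit lay close to the edge of the region, at 601 bp (replicate 1) near Galc and at 488 bp (replicate 2) near Cbln2. The tightest region over all 8 libraries was near Snw1, at 16251 bp, with the 6 required summits within 15 bp (3 and 0 bp in d2 PGCLC, 0 and 5 bp in d6 PGCLC, -10 and -6 bp in plasmablasts) and E12.5 PGC at -13 and 9 bp. The next were near Tcn2, Cntnap5b, Coa7 and Urb2, with required spreads of 35 to 42 bp. Near Cntnap5b, intestinal replicate 1 had a summit 297 bp from the edge of the region.

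Further nearest genes were chosen as examples after their values were seen, from no fixed list, and their number has no background share. Among those that encode surface proteins of lymphocytes were Cd2 (2274 bp), Fcrl1 (5690 bp), Cd37 (329 bp), Cd84 (18154 bp), Tnfrsf14 (15507 bp), Icosl (17337 bp), Pdcd1lg2 (20653 bp) and Cd180 (36026 bp), the distances being those to the nearest gene end. Cd2, Fcrl1, Cd84, Tnfrsf14 and Icosl had both E12.5 PGC libraries, Pdcd1lg2 the male library, and Cd37 and Cd180 neither. Among transcription factor genes were Usf1 (939 bp), Etv1 (650 bp), Mef2c (4586 bp), Mef2d (6520 bp), Runx3 (8324 bp), Nfatc2 (45419 bp) and Runx1 (82235 bp). Of these 7, all but Runx3, which had no E12.5 PGC summit, and Nfatc2, which had the female library alone, had both. Ctnnb1, which encodes the WNT effector beta-catenin, had a region 806 bp outside an end with both E12.5 PGC libraries and an intestinal or photoreceptor summit at 674 bp, and was on none of the lists. Lif, the cytokine used in both PGCLC cultures, had one at 16922 bp with the female library.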

How the data were processed

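BLIMP1 ChIP-seq was deposited as 1 summit list per ChIP library (12 libraries, 6 cell types), each with chromosome and position and no height, score or p-value, per the files. The submitters' processing notes name Bowtie 1.1.2, MACS2 2.1, cutadapt 1.7.1 and Trim Galore 0.3.7, and build mm10. Not given in the sources used here are the threshold, the control, the read depth and whether the authors counted deposited positions from 0 or 1. Positions may therefore be off by 1 bp, and the depth behind list lengths is unknown. The male E12.5 PGC input was not analysed here.

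Summits at most 200 bp apart were merged by single linkage (Python 3.11.15). Gene ends came from RefSeq genes of GRCm38.p6, starts and 300-base promoter windows from an incomplete RefSeq table without chromosome 18. Of 448 listed genes, 436 matched on chromosomes 1 to 19. Named genes are the nearest to the 12 regions with the tightest summits within 1 kb of an end, all listed genes within 50 kb, up to 10 genes nearest to several regions, the 5 farthest regions and the 5 tightest over 8 libraries. Members and lists were chosen with earlier results of these data known, so no test was run. Shares have Clopper-Pearson 95% intervals (scipy 1.17.1) and medians order-statistic intervals. The merging and selection were tested on simulated summits. Other settings are given in the closing section.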

Additional observations from a re-analysis of the deposited data

Results flagged for a closer look

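Chromosomes X and Y were left out of the choice of regions. By the same rule, 9 regions met it on chromosome X and none on Y, and no summit list of the control input was used to set a level for them. Their nearest genes were H2al1j, Fundc1, Elf4, Phf6, Arhgap4, Diaph2, Tmem29, Sh3kbp1 and Ctps2. The region nearest to Fundc1, a mitophagy receptor gene, lay 199 bp from a gene end and had both E12.5 PGC libraries. Of the other 8, 4 had both (Phf6, Diaph2, Tmem29 and Ctps2), 3 the female library alone (H2al1j, Elf4 and Sh3kbp1), and Arhgap4 neither.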

How the results depend on the processing

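The number of regions was 312 when the 6 required summits had to span at most 200 bp, 364 with merging at 100 bp, 608 at 500 bp, 473 with no intestinal or photoreceptor summit within 1 kb, and 538 to 699 when each library was dropped in turn, against 519 as reported. The share with an E12.5 PGC summit was 60.3% when both libraries had to have one, and 74.2 to 84.3% when each library was dropped in turn (74.2% without d6 PGCLC replicate 2). The share near a gene end was 10.9% with the 200 bp span, 8.67% within 500 bp, 21.0% within 2 kb, 36.2% within 5 kb, 18.7% with genes of all kinds and 13.1 to 17% with a library dropped. The median distance was 5367 bp with genes of all kinds and 9434 to 11220 bp with a library dropped. Of 63 alternative values, 53 moved by less than the interval of the reported value or, for numbers of regions, by less than 1.5 times. No paired analysis was possible because no result comes from a test. Absence cannot be separated from short lists without read depth.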
